A study of Caenorhabditis elegans with 2 samples.

Results

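The regions described here are the strong peaks of the X chromosome outside the peb-1 gene, in a chromatin immunoprecipitation and sequencing (ChIP-seq) map of the protein PEB-1 in the nematode Caenorhabditis elegans. The 30000 peaks called on both replicates pooled were ranked by their deposited height, and the members were chosen by that height, as the peaks of rank 1 to 1500 that lie on X with a summit outside X:2191051-2238988, which is the peb-1 gene with 20 kb on either side. This gave 374 of 30000 peaks. Another 17 X peaks of rank 1 to 1500 fell inside the excluded window and were left out. Because height chose the members, their heights and pooled ranks are given only as a description.

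All samples came from worms of strain OP86. They carry the unc-119(ed3) allele on chromosome III and the integrated transgene wgIs86, labelled as an insertion aimed at peb-1, and the protein pulled down was PEB-1 fused to eGFP, a green fluorescent tag. There was 1 group, L2 larvae taken as whole animals of mixed sex, with 2 biological replicates and no second condition. The age of the animals is given as unknown, and a possible control experiment named in the labels was not analysed here. A peak from whole animals carries no information on the tissue that gave it, and the labels do not say how many copies of peb-1, itself an X gene, the transgene adds or where it sits. The map can answer where on X the tagged protein was enriched and how far both replicates ranked the same places high.

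PEB-1 binds DNA through a zinc finger of the FLYWCH type. Its best known target is an enhancer of the pharyngeal muscle myosin gene myo-2, which also lies on X. In worms with 2 X chromosomes, a condensin-containing dosage compensation complex binds both X chromosomes and lowers their transcription. It is loaded at recruitment sites that carry copies of a short motif called MEX, and it then spreads along the chromosome. Worm X is also known for carrying several developmental timing genes, among them lin-14 and the microRNA gene let-7.

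The DNA under 6 of the highest-ranked members is shown first, as 50 bp on either side of the pooled summit, because these peaks lead the X list and most of them carry both short sequences discussed later. Capitals mark the GA repeat GAGAGA (or TCTCTC on the other strand) and the core of the binding consensus recalled for PEB-1, here TGCC preceded by A, G or T and followed by A or G, on either strand. All are printed as the plus strand of ce11.
bet-2, X:10568809-10568909, rank 7: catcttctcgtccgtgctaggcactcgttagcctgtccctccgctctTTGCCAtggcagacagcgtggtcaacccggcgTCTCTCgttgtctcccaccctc
F13D11.9, X:5812087-5812187, rank 9: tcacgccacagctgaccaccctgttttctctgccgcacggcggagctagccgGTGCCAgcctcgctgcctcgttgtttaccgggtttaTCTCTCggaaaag
puf-9, X:5841243-5841343, rank 12: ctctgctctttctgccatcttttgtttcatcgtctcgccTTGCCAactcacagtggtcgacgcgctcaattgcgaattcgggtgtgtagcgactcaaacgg
rpl-11.2, X:2242945-2243045, rank 18: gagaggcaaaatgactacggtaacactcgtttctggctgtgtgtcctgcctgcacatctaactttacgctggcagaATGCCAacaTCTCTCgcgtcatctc
F13C5.2, X:593482-593582, rank 20: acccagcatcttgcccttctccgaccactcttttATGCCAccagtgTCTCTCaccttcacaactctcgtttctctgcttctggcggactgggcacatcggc
nfki-1, X:15353994-15354094, rank 24: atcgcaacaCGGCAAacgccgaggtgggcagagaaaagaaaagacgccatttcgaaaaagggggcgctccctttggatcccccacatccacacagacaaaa
In bet-2, F13D11.9, rpl-11.2 and F13C5.2 both motifs lie within the printed bases, while the puf-9 and nfki-1 stretches hold the core only.

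The strongest members sat beside genes of many kinds, and the very highest ranked high in both replicates. The top X peak, rank 7 in the pooled list with a height of 94.2, lay 414 bp upstream of bet-2, a bromodomain gene, and was placed 6 by replicate 1 and 14 by replicate 2. The peak of rank 9 had its summit within an F13D11.9 exon, a non-coding gene, 6215 bp upstream of the nearest coding gene F13D11.3, with places 9 and 27 in the same lists. The peak of rank 12, 299 bp upstream of puf-9, whose product is an RNA-binding protein related to Pumilio, was placed 13 and 10. The peak 377 bp upstream of rpl-11.2, which encodes a protein of the large ribosomal subunit, had pooled rank 18 and ranked 17 and 107. Its summit is 4007 bp past the end of the excluded peb-1 window. These peaks, and that 18 bp upstream of the splicing-factor gene snrp-40.1 (pooled rank 22, replicate ranks 23 and 22), were high in both lists.

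Genes of the cytoskeleton and of signalling were also among the highest 30. The peak 37 bp upstream of unc-115, an actin-binding gene of axon guidance, had pooled rank 23 and was placed 26 by replicate 1 and 19 by replicate 2. That 683 bp upstream of grk-1, a G protein-coupled receptor kinase gene, ranked 34 and 79. The peak 780 bp upstream of akt-2, a kinase gene of insulin signalling, had pooled rank 72, ranked 127 in replicate 1 and had a height of 16.2 in replicate 2, above the median of 10.3 there. In each of these both replicates placed the peak far above rank 1500. Near nfki-1, an inhibitor of kappa B homologue, the summit of the rank 24 peak lay 1194 bp upstream, inside an exon of the non-coding gene Y15E3A.8, with replicate ranks 36 and 20.

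Other genes of the highest 30 had a high place in replicate 1 and a lower place in replicate 2. The peak 428 bp upstream of F13C5.2 had pooled rank 20, ranked 11 in replicate 1 and 1523 in replicate 2. That 275 bp upstream of rsd-3, needed for systemic RNA interference, ranked 21 and 216. The peak 670 bp upstream of madd-3, a muscle arm development gene, ranked 29 and 484. The 5′ UTR peak of C28G1.2, pooled rank 60, ranked 45 in replicate 1 and only 20436 in replicate 2. The rank 76 peak near C26B9.6 and the rank 78 peak in an intron of mom-1, the Porcupine homologue of Wnt secretion, ranked 48 and 59 in replicate 1 and overlapped no replicate 2 peak at all. Of the 30 highest members, 18 lay in the promoter window of a protein-coding gene (1000 bp upstream to 200 bp downstream of a transcript start), 6 in an exon of a non-coding RNA gene and 1 in a coding exon, that of the polyketide synthase gene pks-1 (pooled rank 29, replicate ranks 31 and 235). The remaining highest members with a coding promoter included atf-6, a bZIP gene of the endoplasmic reticulum stress response (ranks 60 and 379), set-20, a SET-domain gene (85 and 345), calu-1, a calumenin gene (104 and 552), F46H5.2 (35 and 3316) and serp-1.1 (86 and 40). Away from coding promoters, the peak of rank 43 lay 2841 bp upstream of sma-9, the Schnurri homologue of TGF-beta signalling (49 and 394), that of rank 54 lay 5971 bp from K02D3.1 (65 and 457), and that of rank 69 lay 6437 bp from F09C8.1 (123 and 45), in the promoter window of the non-coding gene F09C8.5.

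Over all 374 members, replicate 1 placed many more of them high than replicate 2 did. A member counted as high in a replicate when it overlapped a peak of rank 1 to 1500 there by at least 1 bp. In replicate 1 this held for 231 members (61.8%, exact 95% interval 56.6 to 66.7), against 5.52% of all pooled peaks. In replicate 2 it held for 123 members (32.9%, 28.1 to 37.9), against 5.35% of all pooled peaks. Both replicates placed 58 members high (15.5%, 11.99 to 19.6), against 0.817% of all pooled peaks. The pooled heights that chose the members come from the same reads, so members had to exceed these backgrounds and nothing is read from the excess. All intervals over peaks cover counting error only and take peaks as independent.

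Of the others, 173 were high in replicate 1 only, 65 in replicate 2 only and 78 in neither. No replicate 1 peak overlapped 7 members, and no replicate 2 peak overlapped 55. The median rank was 886 in replicate 1 (n = 367 members with a peak) and 2898 in replicate 2 (n = 319). Heights ran from 5.64 to 78.7 with a median of 15.5 in replicate 1, and from 5.17 to 28.1 with a median of 10.3 in replicate 2, on the authors' scale, for which no read depth is known. The autosomal peaks of rank 1 to 1500 (n = 1109) were high in replicate 1 at 53.4% (50.4 to 56.4), an interval just below that of the members. They were high in replicate 2 at 33.1% (30.3 to 35.9) and in both at 12.6% (10.7 to 14.7). Those intervals overlap the intervals of the members. The members also sat higher in the pooled list, with a median rank of 630 against 798. At pooled ranks 1 to 160 every peak of both sets was high in replicate 1. At ranks 161 to 500 the members were at 81.9% and the autosomal peaks at 86.1%. The values were 54.2% and 47.8% at ranks 501 to 1000, and 28.1% and 28.3% at 1001 to 1500. In both sets replicate 1 placed more of the peaks high than replicate 2 did.

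By pooled rank, the members high in both replicates were concentrated at the top. The pooled heights are made from the same reads, so these counts are only a description. Of the 53 members of pooled rank 1 to 160, which are also the members present in the authors' thresholded list, 31 were high in both replicates. At pooled ranks 161 to 500 it was 21 of 105, at 501 to 1000 it was 4 of 120, and at 1001 to 1500 it was 2 of 96. Across the 312 members with a peak in both lists, Spearman's rho between the replicate ranks was -0.09, a description only, since a pooled height threshold keeps peaks that are high in either list.

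**Figure D1:**
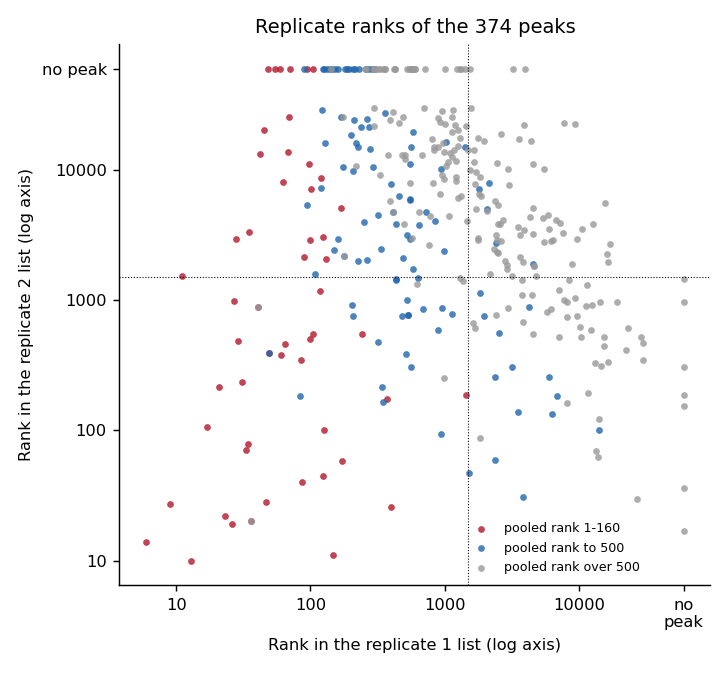
Rank of each of the 374 members in the replicate 1 list (x, log axis) and the replicate 2 list (y, log axis); points at the margin marked no peak overlap nothing in that list, and dotted lines mark rank 1500. The members of pooled rank 1 to 160 all lie left of the vertical line, and 31 of these 53 also lie below the horizontal line.

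Some members stood out in replicate 2 alone. The rank 612 peak, 8315 bp from the start of ZK380.4, ranked 17 in replicate 2 and overlapped no replicate 1 peak. The rank 957 peak near ZC13.10 ranked 36 in replicate 2, again with no replicate 1 peak. The rank 434 peak in the promoter window of the microRNA gene mir-788 ranked 31 in replicate 2 and 3801 in replicate 1. A limit of rank 1500 in replicate 1 would have missed these members, as the same limit in replicate 2 would have missed the mom-1 and C26B9.6 peaks.

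Members that replicate 1 placed high held the GA repeat more often than those it did not, whether or not replicate 2 also placed them high. Among the 58 members high in both, 69.0% lay in a promoter window of any gene (55.5 to 80.5) and 43.1% held the GA repeat within 100 bp of the summit (30.2 to 56.8). Among the 173 high in replicate 1 only these shares were 64.2% (56.5 to 71.3) and 43.9% (36.4 to 51.7). Among the 65 high in replicate 2 only they were 43.1% (30.8 to 56.0) and 18.5% (9.92 to 30.03), and among the 78 high in neither 35.9% (25.3 to 47.6) and 15.4% (8.21 to 25.3). For the GA repeat the intervals of the first pair of classes do not overlap those of the second pair, and the first pair did not differ from each other beyond their intervals. The PEB-1 core was held by 56.9% (43.2 to 69.8), 42.2% (34.7 to 49.9), 43.1% (30.8 to 56.0) and 34.6% (24.2 to 46.2) in the same order, with intervals that overlap between neighbouring classes. Coding exons took 4 of the 58, 12 of the 173, 11 of the 65 and 14 of the 78. Pooled height moves with these classes, with a median of 36.3, 26.2, 23.1 and 22.1 in the same order, and its part in the differences was not tested.

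Along X, members were found from end to end. Cut into 3 parts of equal length, X held 30.7% of the members on the left (26.1 to 35.7), 31.3% in the middle (26.6 to 36.3) and 37.97% on the right (33.03 to 43.1). The 5512 other X peaks were at 32.3% on the left and 32.7% on the right (31.5 to 33.99). On the right the intervals overlap narrowly, and that of the members lies above the 32.7% of the other X peaks. Whether the members lean to the right was not tested. By 1-Mb bins, 12 to 13 Mb and 14 to 15 Mb held the most members (29 each), followed by 13 to 14 Mb (28) and 11 to 12 Mb (27), and 1 to 2 Mb held the fewest of the full bins (13). The short last bin held 8. Of the 53 members of the thresholded list, the most lay at 10 to 11 Mb (8) and 5 to 6 Mb (7) and none at 1 to 2 Mb or in the last bin. Their shares of 32.1% on the left, 41.5% in the middle and 26.4% on the right (15.3 to 40.3) have intervals that overlap those of all members.

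**Figure D2:**
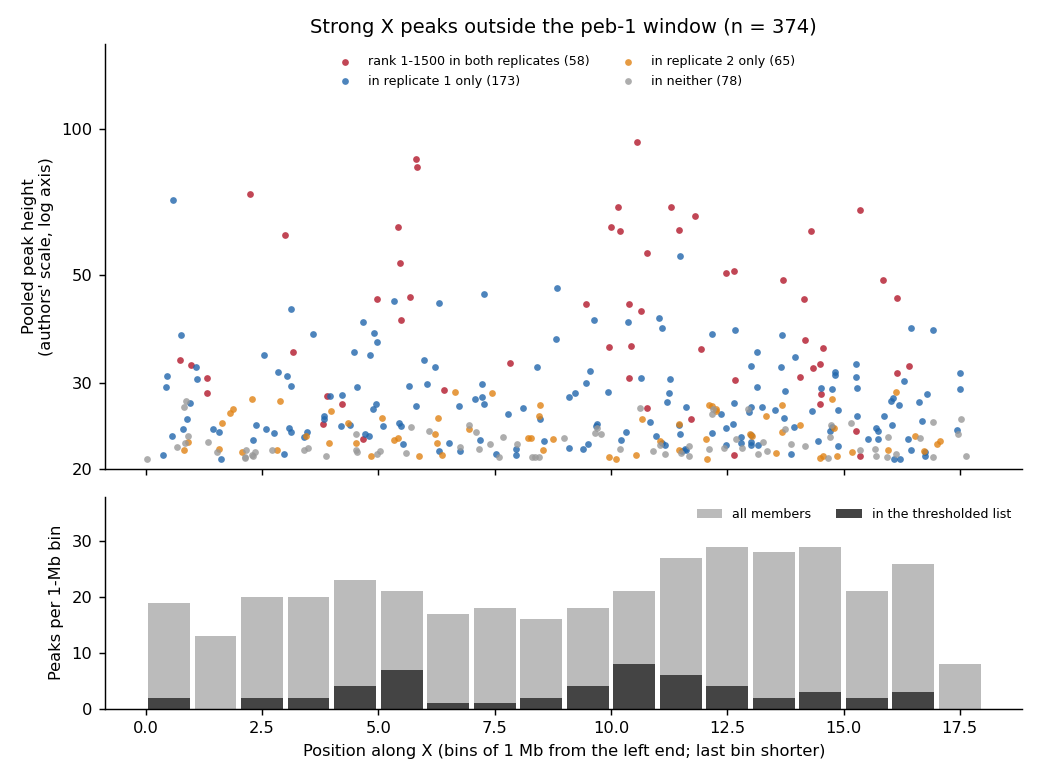
Upper panel, pooled height (authors' scale, log axis) of each member against its position on X in Mb, coloured by the replicates in which it ranked 1 to 1500 (58 in both, 173 in replicate 1 only, 65 in replicate 2 only, 78 in neither); lower panel, members per 1-Mb bin, with those of the thresholded list in dark grey. Tall peaks are scattered from end to end, and the bins with most members, 12 to 13 Mb and 14 to 15 Mb, hold 4 and 3 of the thresholded members.

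X took a larger share of the strong peaks than of the weak ones. Outside the peb-1 window, X peaks made up 34.9% of pooled ranks 1 to 160 (27.3 to 43.0), 31.3% of ranks 161 to 500, 24.05% of ranks 501 to 1000 and 19.4% of ranks 1001 to 1500 (15.97 to 23.1), against 18.9% of ranks 10001 to 30000. X is 17.7% of the nuclear genome by length. In the replicate 1 list X took 41.7% of ranks 1 to 160 (33.8 to 50.02) and 20.8% of ranks 1001 to 1500. In the replicate 2 list the values were 25% (18.3 to 32.7) and 21.3%, so the gradient was steep in the pooled list and in replicate 1, and the intervals at both ends overlapped in replicate 2.

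Some members lay close together, which was not compared with the spacing of other peaks. The median distance from a member to the nearest other member was 11278 bp, 104 members fell into 45 groups linked by gaps of at most 5 kb, and 38 lay over 50 kb from any other. Of the 374 members, 14 overlapped another member, so a few groups are overlapping calls: the nfki-1 peaks of rank 24 and 1379 share the same peak in each replicate list.

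The timing gene lin-14, a transcription factor gene of early larval fates and a target of the microRNA lin-4, had the most members of any gene, with 4 in its body and the 1000 bp upstream. Its promoter peak (X:11465209-11465564, 173 bp upstream, pooled rank 30) ranked 27 in replicate 1 and 988 in replicate 2. An intron peak of pooled rank 44 ranked 28 and 2932. The intron peaks of rank 801 and 1166 ranked 950 and 9171, and 14019 and 123, so the last was high in replicate 2 only. A further member of rank 650 lay 3787 bp upstream.

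Several other developmental genes had more than 1 member. At nhr-25, a nuclear receptor gene of molting and of the epidermis, 5 members spanned 6603 bp, with pooled ranks 213 to 1041 and replicate 1 ranks 330 to 457. Those of rank 213 and 966 overlap and share their replicate peaks. In replicate 2 the best place among them was rank 4723. At kin-20, a casein kinase family gene of developmental timing, 4 members ranked 206 to 542 in the pooled list and 179 to 559 in replicate 1, and those of rank 312 and 542 likewise share their replicate peaks. The nuclear receptor gene daf-12, which links steroid hormone to timing and dauer choice, held 2 intron members of pooled rank 90 and 263, which ranked 99 and 432 in replicate 1 and 504 and 3855 in replicate 2. myrf-2, a myelin regulatory factor homologue, had a promoter member of pooled rank 31 (replicate ranks 33 and 71) and another of rank 1138 at an internal start (4554 and 3228).

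Junction and muscle genes were also among them. At dlg-1, the Discs large homologue of epithelial junctions, members of pooled height 52.99, 40.5 and 24.5 (the first of rank 48 and the last of rank 664) lay 4368 bp upstream and 677 and 153 bp downstream of a start. The upstream peak ranked 148 in replicate 1 and 11 in replicate 2, which made it the second-highest X member of replicate 2 after that of puf-9. The actin gene act-4 had 3 members, of pooled rank 145, 425 and 1339. Their replicate 1 ranks were 68, 1027 and 4528 and their replicate 2 ranks 13764, 16470 and 5143. myo-2, the gene whose enhancer PEB-1 is known to bind, had a member 254 bp upstream of its start (pooled rank 1032) and another in an intron (rank 699). They ranked 715 and 425 in replicate 1, and neither overlapped a replicate 2 peak.

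Upstream of lep-5, a long non-coding RNA gene of developmental timing, 5 members spanned 7433 bp, with pooled ranks 51, 121, 276, 415 and 1344. The rank 51 peak, in an exon of the non-coding gene C02B4.6, ranked 41 in replicate 1 and 886 in replicate 2, and the overlapping rank 1344 member shares both of these peaks. The member in the promoter window of lep-5 itself was that of rank 415, which ranked 560 in replicate 1 and overlapped no replicate 2 peak.

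Most members lay between genes or at gene starts, and few lay in coding sequence. A promoter window of any gene held 207 members (55.3%, 50.2 to 60.5), of which 125 (33.4%) were at protein-coding genes and 82 at non-coding genes only. The other X peaks were at 37.9%, the autosomal peaks of rank 1 to 1500 at 49.1% (46.2 to 52.1) and all pooled peaks at 39.3%. Of the members in no promoter window, 91 lay inside a protein-coding gene and 76 outside. By annotation at the summit, 182 were intergenic (48.7%), 84 in introns (22.5%), 49 in exons of non-coding RNA genes (13.1%), 41 in coding exons (10.96%, 7.98 to 14.6), 11 in 5′ UTRs and 7 in 3′ UTRs. Coding exons held 19.5% of the autosomal peaks of rank 1 to 1500 (17.2 to 21.9) and 23.7% of the other X peaks. Intergenic sequence held 36.9% of the autosomal peaks of rank 1 to 1500 (34.03 to 39.8), below the members' share.

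The farthest member lay 25601 bp from a coding start, and the median was 1364.5 bp. Location changed with rank: the promoter share fell from 73.6% at pooled ranks 1 to 160 to 36.5% at ranks 1001 to 1500, and the coding exon share rose from 1.89% to 18.8%. The autosomal peaks followed the same course over the same rank bins. The GC content around the summit had a median of 44.5% in members and 34.6% in their flanks centred 500 bp away, and of 42.8% in the autosomal peaks of rank 1 to 1500. Its part in the motif shares given further on was not tested.

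**Figure D3:**
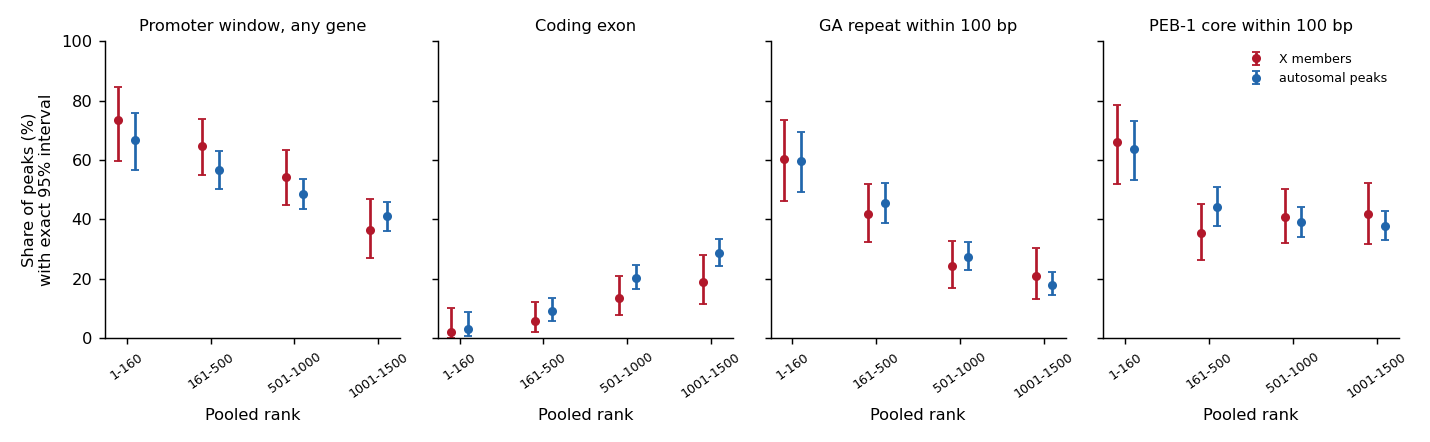
Share of X members (red) and autosomal peaks (blue) in 4 bins of pooled rank that lie in a promoter window, in a coding exon, or within 100 bp of the GA repeat or the PEB-1 core; bars are exact 95% intervals over peaks. The X and autosomal intervals overlap in every bin of the panels, and the GA repeat falls from 60.4% to 20.8% of members with rank.

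By the gene classes looked up, members lay in promoter windows of several transcription factor and timing genes. None lay in those of the listed channel, neuropeptide or cuticle genes. Of the 2731 protein-coding genes of X, 131 had a member in a promoter window, which is 4.8%. Among 9 heterochronic and molting genes on X, 5 did (kin-20, lin-14, myrf-2, nhr-25 and puf-9). Among 27 nuclear hormone receptor genes, 5 did (nhr-1, nhr-25, nhr-32, nhr-48 and nhr-255), with an interval of 6.3 to 38.1%. All had pooled ranks of 320 or beyond, and 3 of these peaks overlapped no replicate 2 peak. The nhr-255 peak lay 521 bp upstream of that gene and 39 bp downstream of the start of a tRNA gene. Among 12 bHLH and bZIP genes, 4 did: atf-6, cebp-1, a C/EBP-like gene of axon regeneration (rank 723), hlh-19 (836) and mdl-1, a Mad-like gene (439). Among 29 homeobox genes only dve-1 did (rank 309), and among 15 muscle genes act-4, myo-2 and unc-78, an actin-interacting protein gene (847).

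Of 6 genes of X counting and dosage compensation on X, sdc-2, which targets the dosage compensation complex to X, had a member 448 bp upstream, of pooled rank 1228 and replicate ranks 829 and 14925. Counting promoter windows only, single members were found at akt-2 among 7 insulin and TGF-beta genes and at unc-115 among 8 axon guidance genes. Others were at rpl-11.2 of 2 ribosomal protein genes and at puf-9 of 4 genes of the PUF, KH and RRM list. None of 3 Wnt genes had one in such a window, and the mom-1 member of rank 78 lay in an intron. None was found at 49 ligand-gated and potassium channel genes, which allows a share of up to 7.25% (exact 95% interval), at 38 neuropeptide and insulin-like genes (up to 9.25%) or at 35 collagen and cuticle genes (up to 10.003%). At the overall share of 4.8% these counts of 0 were not distinguishable from the background.

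Small RNA genes carried members too. Of 74 microRNA genes on X, 7 had a member in the promoter window (9.46%, 3.89 to 18.5), from 6 peaks, beside 4.8% of the protein-coding genes of X. For let-7, the microRNA of the larval-to-adult switch, the peaks of pooled rank 321 and 385 ranked 845 and 1827 in replicate 1 and 4081 and 1137 in replicate 2. mir-84, of the same family, had a peak of rank 403, which ranked 583 and 19703. The cluster of mir-54, mir-55 and mir-56 shared a peak of rank 172 inside an intron of F09A5.3 (265 and 2023), and mir-55b had the next peak of that intron, of rank 307 (128 and 16133). None of the 6 was high in both replicates, against 58 of all 374 members (15.5%). These are too few peaks to tell apart from that share. Of 276 tRNA genes 27 had a member (9.78%, 6.55 to 13.9), from 20 peaks. That interval takes genes as independent though some share a peak, so nothing is read from its place above 4.8%. Of the 20 peaks, 11 had their summit in an exon of a non-coding RNA gene, against 13.1% of all members. These peaks were picked for lying at tRNA gene starts, so those shares are not comparable. Of 2520 genes annotated as ncRNA, 143 had a member (5.67%, 4.80 to 6.65). Of 33 snoRNA genes 3 had one (1.92 to 24.3%), and of 38 lincRNA genes 3 (lep-5, linc-54 and linc-78, 1.66 to 21.4%). Of 162 piRNA genes 5 had one (1.01 to 7.06%), and of 3 snRNA genes none. The microRNA, snoRNA, lincRNA and piRNA intervals cover 4.8%.

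The GA repeat was the 6-base sequence with the largest excess around member summits over their own flanks. Within 100 bp of the summit, 125 members held GAGAGA on either strand (33.4%, 28.7 to 38.5), against 11.1% of the flank windows, 12.1% of the other X peaks and 13.5% of all pooled peaks. The autosomal peaks of rank 1 to 1500 were at 30.7% (27.95 to 33.5), with an interval that overlaps that of the members. The next were the overlapping AGAGAG (29.1% against 10.03% of flanks) and CCTCTC (24.6% against 6.28%, and 15.8% of the autosomal peaks). The PEB-1 core was held by 161 members (43.0%, 37.97 to 48.2), with 31.8% of flanks, 34.7% of the other X peaks, 35.2% of all pooled peaks and 41.8% of the autosomal peaks of rank 1 to 1500. Both motifs were held by 58 members and neither by 146.

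The GA repeat was more common at gene starts: 43.0% of the 207 promoter members held it (36.2 to 50.04), against 21.6% of the 167 others (15.6 to 28.6). In the autosomal peaks of rank 1 to 1500 the shares were 34.5% (30.5 to 38.7) and 26.95% (23.3 to 30.8), with intervals that overlap. Among members both the promoter share and the GA repeat share fell with pooled rank, and the part of rank in this difference was not tested. The GA repeat was rare in coding exons, at 3 of 41 members. Among the sequences least common at summits relative to flanks was AAATTT, in 13.9% of members and 44.5% of flanks. In the 327 X peaks that replicate 2 ranked 1 to 1500 on its own, outside the peb-1 window, the GA repeat was held by only 20.8% (16.5 to 25.6), against 35.9% of the 376 such peaks of replicate 1 (31.1 to 41.0). CACACA was held by 18.4% of members and of the autosomal peaks alike, against 10.8% of all pooled peaks and 9.63% of the members' flanks. The E-box CAGGTG (or CACCTG) was held by 6.95% of members (4.59 to 10.02), an interval that covers the 5.75% of all pooled peaks.

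**Figure D4:**
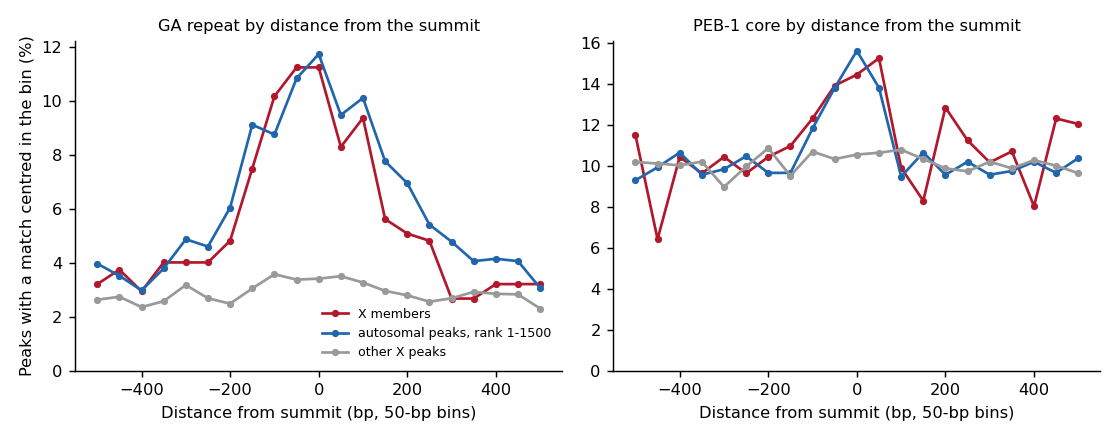
Share of peaks (y, %) with the GA repeat (left) or the PEB-1 core (right) centred in 50-bp bins of distance from the pooled summit (x, bp), for the members (red), the autosomal peaks of rank 1 to 1500 (blue) and the other X peaks (grey). Both strong sets rise at the summit for both motifs, and the other X peaks rise little.

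The X members also differed from the autosomal peaks of the same ranks in the core of the MEX motif of the dosage compensation complex, a sequence recalled from published work and taken as GCGCAGGG on either strand. It lay within 100 bp of the summit in 11 members (2.94%, 1.48 to 5.202), in 10 of 5512 other X peaks (0.181%), in 1 of 1109 autosomal peaks of rank 1 to 1500 (0.0902%, 0.00228 to 0.501), in 1 of 748 flank windows of members (0.134%) and in 35 of all 30000 pooled peaks (0.117%). The interval of the members lies above that of the autosomal peaks. Over the genome the sequence is denser on X, with 81 matches (4.57 per Mb) against 233 on the autosomes (2.82 per Mb). The part of this density in the difference between members and autosomal peaks was not tested. Of the 81 X matches, 14 lay within 100 bp of a member's summit (17.3%), 10 near another X peak and 57 near no pooled X summit.

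Few of these members lay at gene starts, and all of them were high in replicate 1. All 11 ranked 1 to 1500 in replicate 1, 3 did in replicate 2 and 6 had no replicate 2 peak. Among all members these shares were 61.8%, 32.9% and 14.7%, so the 3 in replicate 2 were near the share of all members. Only 2 of the 11 lay in a promoter window, against 55.3% of all members. By rank, 5 of 53 members of pooled rank 1 to 160 held the core, 3 of 105, 3 of 120 and 0 of 96 in the following bins. In the same bins 100%, 81.9%, 54.2% and 28.1% of members were high in replicate 1. The part of pooled rank in the replicate 1 places of the 11 was not tested. The median distance from summit to motif was 29 bp, and the farthest was 93 bp. In the replicate lists taken alone, 15 of 376 X peaks of replicate 1 held it (3.99%, 2.25 to 6.49) against 2 of 1109 autosomal peaks (0.180%), and 3 of 327 X peaks of replicate 2 (0.917%, 0.190 to 2.66) against 1 of 1157 (0.0864%, 0.00219 to 0.481). The separation of X from the autosomes is therefore seen in replicate 1, while in replicate 2 the intervals overlap. Of the 11, 2 held the GA repeat and 3 the PEB-1 core.

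The members near R04E5.9, gcc-1, F19H6.5 and T24D8.6, whose core lay at -45, -93, -69 and -71 bp from the summit, are not printed. They include both members in a promoter window. The 40 bp around the MEX core (capitals) are shown for 7 of the 11 members with it. They are read 5′ to 3′ on the strand that carries it, so that the bases beside the core can be compared.
pks-1 coding exon, X:5429574-5429613, plus strand, rank 29: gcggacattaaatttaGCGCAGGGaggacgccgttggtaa
Y41G9A.17 intron, X:2997107-2997146, minus strand, rank 33: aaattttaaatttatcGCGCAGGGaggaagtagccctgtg
mom-1 intron, X:6296532-6296571, plus strand, rank 78: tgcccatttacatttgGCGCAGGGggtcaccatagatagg
near W02H3.3, X:11094210-11094249, minus strand, rank 116: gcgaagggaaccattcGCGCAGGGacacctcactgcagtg
kin-20 intron, X:15275778-15275817, minus strand, rank 206: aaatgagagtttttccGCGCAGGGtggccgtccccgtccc
near F20B6.9, X:4209250-4209289, minus strand, rank 349: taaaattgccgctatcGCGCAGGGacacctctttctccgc
near gtr-1, X:806658-806697, plus strand, rank 720: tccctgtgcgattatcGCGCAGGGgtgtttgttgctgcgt
The pks-1 peak had pooled rank 29 and ranked 31 in replicate 1 and 235 in replicate 2. That in an intron of Y41G9A.17, with pooled rank 33, ranked 47 in replicate 1 and 28 in replicate 2. The mom-1 and kin-20 intron peaks (pooled rank 78 and 206) ranked 59 and 181 in replicate 1 and overlapped no replicate 2 peak, and neither did those near W02H3.3, F20B6.9 and gtr-1 (pooled rank 116, 349 and 720, replicate 1 ranks 54, 89 and 143). A sequence match is a description of the DNA under a peak and does not show which protein was there.

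**Figure D5:**
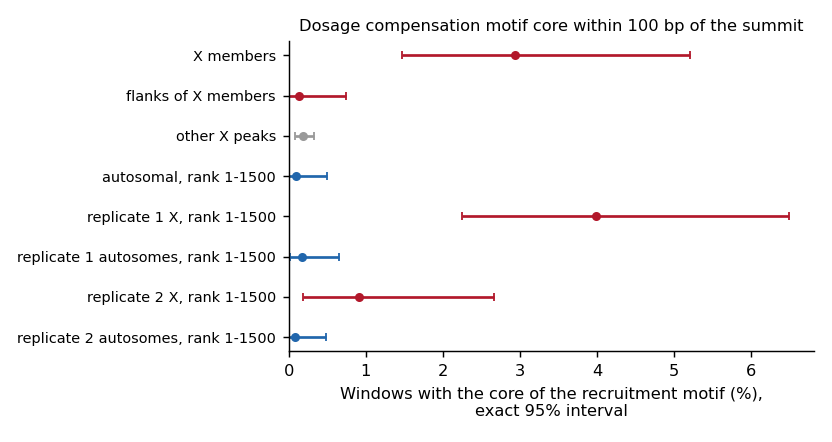
Share of windows (x, %) with the MEX core within 100 bp of the summit, with exact 95% intervals, for the members, their flanks, the other X peaks, the autosomal peaks of rank 1 to 1500, and the X and autosomal peaks of rank 1 to 1500 of each replicate's own list. The members (2.94%) and the X peaks of replicate 1 (3.99%) lie above the autosomal sets, and the interval of the X peaks of replicate 2 overlaps them.

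The rank limit cut through peaks of nearly equal height. The last members, of rank 1486, 1488 and 1500, had heights of 20.96, 20.96 and 20.92 and lay nearest to R11.4, fbxb-58 and Y73B3A.1. The first X peaks beyond the limit, of rank 1502, 1506 and 1507, had heights of 20.92, 20.91 and 20.91 and lay nearest to C15H9.9, jmjd-3.1 and ver-3.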

How the data were processed

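eGFP-PEB-1 was immunoprecipitated from L2 larvae in 2 biological replicates, whose numbers come from the labels, in 1 group, with a size range of 150 to 350 bp per the labels. The authors deposited peak lists of 30000 peaks each for replicate 1, replicate 2 and both pooled, and a thresholded list. The file names describe the first 3 as peaks with background, made for a test of irreproducible discovery rate (IDR). The sources used here give no read depth, aligner, peak caller or IDR threshold, so peak width and height carry an unknown dependence on depth. The peak height is a signal deposited by the authors, used only to rank and describe peaks within a list. The second-to-last column is nominally a significance, but it holds negative values, and so it was taken as a deposited score, used to break ties, of which no member had any. The positions are those of the deposited ce11 lists, 1-based.

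The pooled list was ranked, and members were matched to the replicate lists by an overlap of at least 1 bp, taking the best-ranked replicate peak. 1 such peak can serve 2 members, as 7 did in each replicate. Genes came from Ensembl release 115 of the same assembly, with microRNA and other symbols filled in from RefSeq, and sequence from the RefSeq genome. Coding exons took precedence where annotations overlap, followed by UTRs (5′ before 3′), exons of non-coding RNA genes and introns, and the rest was intergenic. Motifs were searched on both strands within 100 bp of the summit; the PEB-1 and MEX cores were written as recalled from published work. Shares carry exact (Clopper-Pearson) 95% intervals. Python 3.11.15, numpy 2.4.6, pandas 2.3.3, scipy 1.17.1 and matplotlib 3.10.9 were used, and the code was tested on simulated data.

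With 1 group and no comparison samples, no test was run. The members, gene lists and motifs were chosen with earlier results of these data known. Named genes were those of the 30 highest-ranked members, the 15 members with the best worse-of-2 replicate ranks, list and microRNA genes with a member in the promoter window, genes with at least 3 members, and the members beside the rank limit. Runs of members, peaks seen in 1 replicate and those with the MEX core were named after their values were seen. 4 listed symbols had no match. The peak lists of the older build ce10 were not used, except to count strong X peaks. The alternatives tried were other rank limits, exclusion and promoter windows, motif windows, overlap rules and each replicate's own list.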

Additional observations from a re-analysis of the deposited data

How the results depend on the processing

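Over 9 results, 46 alternatives were tried, of which 30 left the value within its interval or a count within 1.5 times, and 16 moved it. The number of members went to 278 and 478 with rank limits of 1000 and 2000, and to between 327 and 376 with a single replicate's list in place of the pooled one. The promoter share of 55.3% became 41.7% with a window of 500 bp upstream and 100 bp downstream, 71.9% with 2000 and 500 bp, and 61.9% with a rank limit of 1000. For protein-coding genes the share of 33.4% became 22.2% and 47.3% with the same windows. The share high in both replicates rose from 15.5% to 26.5% when high meant rank 3000. The GA repeat fell to 18.7% within 50 bp, and the PEB-1 core went to 29.1% within 50 bp and 52.7% within 150 bp. With a single replicate's list the ranges were 44.3% to 61.4% for any promoter, 25.1% to 38.03% for coding promoters, 20.8% to 35.9% for the GA repeat, 37.3% to 45.5% for the PEB-1 core, 0.917% to 3.99% for the MEX core and 32.7% to 36.7% for the middle part of X, cut into 3. The lower value came from replicate 2 alone in each of the motif and promoter shares. Smaller windows hold fewer matches by construction, and for the other changes the cause was not tested. The MEX core alternatives were chosen after seeing the data. No paired analysis was possible because there was 1 group and no test. Without read depth, no limit of detection can be given for peaks that a replicate lacks.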

Other observations

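Some members lay at genes outside the lists, and these were picked after their values were seen. The Argonaute gene alg-1, whose protein acts with microRNAs, had a member 396 bp upstream of a start with pooled rank 186, which ranked 731 in replicate 1 and 4764 in replicate 2. The gene of its partner ain-1, a GW182-like protein, had a member of pooled rank 406, which ranked 168 and 25605. The cell cycle kinase gene cdk-4 had a promoter member of pooled rank 476 (555 and 11203). The histone demethylase gene utx-1 had a promoter member of rank 934 that ranked 304 in replicate 1 and overlapped no replicate 2 peak. Each of these was high in replicate 1 and not in replicate 2, as were 173 of all 374 members (46.3%).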
